A study of Canis lupus familiaris with 22 samples.

Results

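Canine invasive urothelial carcinoma (iUC) samples were ordered by a score that sets basal markers against luminal markers, and the 6 samples of highest score were compared with the 6 of lowest score. The score is the mean of the basal genes KRT17, CDH3 and LAMB3 minus the mean of the luminal genes UPK2, UPK3A, KRT20, GATA3 and PPARG. The rule names 10 genes, but KRT5 and KRT14 had no probe set with a single gene symbol, so 3 basal and 5 luminal genes were used. The groups were selected on these values, from 18 iUC samples in a series of 22. The other 6 iUC samples lie in the middle of the order, and the 4 remaining samples are normal bladder. All 18 tumours arose in pet dogs, were taken by cystoscopy before therapy and were high grade by histopathology. The normal bladders came from healthy dogs of matched age. Each sample is RNA of 1 dog on 1 Affymetrix canine array, and no sample carries an allele or agent set by the study.

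The urothelium that lines the bladder is layered. Basal cells rest on the basement membrane and carry stratified keratins, P-cadherin and laminin, while the umbrella cells at the lumen make uroplakins and depend on transcription factors such as GATA3, PPARG and FOXA1. Human bladder cancers are commonly sorted by which of these programmes they express, and basal tumours often show squamous features.

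Values are log2 expression after the median of each probe set over the 22 arrays was subtracted, so 0 is that median and a value gives no absolute level. In the high-score group the score was 1.83 in replicate 4, 0.582 in replicate 3, 0.518 in replicate 16, 0.417 in replicate 11, 0.373 in replicate 12 and 0.363 in replicate 13. In the low-score group it was -0.288 in replicate 14, -0.523 in replicate 17, -0.540 in replicate 15, -0.599 in replicate 1, -0.626 in replicate 8 and -0.795 in replicate 9. Replicate 4 stood far above the other high-score samples. The samples just outside the groups were replicate 10 at 0.237 below the high-score group and replicate 6 at -0.0639 above the low-score group. The mean of the 3 basal genes ran from 0.155 to 0.653 in high-score samples and from -0.193 to -0.0390 in low-score samples. In replicates 11 and 12 KRT17 (-0.08 and -0.20) and CDH3 (-0.09 and -0.01) lay below 0, and only LAMB3 (0.78 and 0.80) lay above it. LAMB3 was 1.58 in replicate 16 and -0.54 in replicate 13. The mean of the 5 luminal genes ran from -1.17 to 0.132 in high-score samples and from 0.207 to 0.720 in low-score samples. KRT20, counted as luminal, was not lower in the high-score group, with -0.10 to 0.18 there and -0.15 to 0.09 in low-score samples. These values chose the groups and are given as a description.

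**Figure D1:**
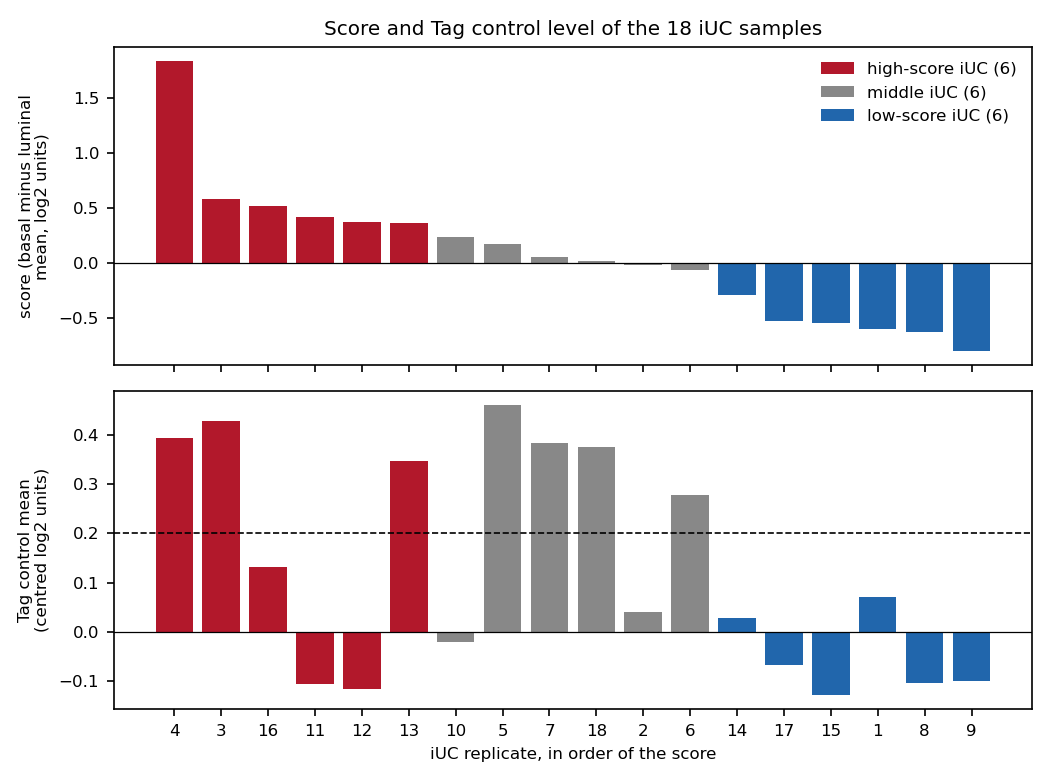
The upper panel plots the score in log2 units and the lower panel the mean of the AFFX-r2-Tag control probe sets in centred log2 units, 1 bar for each of the 18 iUC samples in order of the score, with high-score samples in red, middle samples in grey and low-score samples in blue. The dashed line marks a Tag mean of 0.2, which 3 of 6 high-score samples and 0 of 6 low-score samples reached.

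The array carries 17 AFFX-r2-Tag control probe sets, which belong to no dog gene. Their mean was 0.2 or above in 3 of 6 high-score samples (replicates 4, 3 and 13), in 4 of 6 middle samples and in 0 of 6 low-score samples. Tag-high samples were thus missing at the low-score end but were not ordered by the score, since the median Tag mean was 0.238 in high-score, 0.326 in middle and -0.0832 in low-score samples. Main results below are given also for the 3 high-score samples with a Tag mean below 0.2 against the 6 low-score samples, all of which lie below 0.2. The standard deviation over all probe sets of an array was 0.473 to 0.760 in high-score samples and 0.368 to 0.474 in low-score samples. The mean of 13 GAPDH and actin control probe sets was -0.851, -0.626 and -0.902 in the 3 Tag-high high-score samples (replicates 4, 3 and 13) and 0.198 to 0.316 in the other 3, against -0.363 to 0.279 in low-score samples. The part of the Tag and control levels in the results was not tested.

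The comparison asked which other genes differed between tumours at the 2 ends of the basal to luminal order. Most genes called were lower in high-score tumours, among them the umbrella cell genes SNX31 and RAB27B, the luminal factor FOXA1, the epithelial splicing gene ESRP1 and the lipid genes CDS1, CES1 and SPTLC3, each 2-fold or more lower. Only 7 of 15107 genes were called higher (0.0463%), and 145 were called lower (0.960%), at an adjusted p of 0.05 or below by limma with Benjamini-Hochberg adjustment and a fold change of 2 or more. At an unadjusted p under 0.05 the directions were nearly balanced, with 2602 genes higher and 2754 lower (5356 in all), and the median log2 fold change of all genes was 0.02. After quantile normalization the counts were 85 higher and 244 lower, so that 25.8% of the calls were higher, against 4.61% in the comparison as made. Since the groups were formed from genes on the same arrays, the p-values say how far other genes follow the score.

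The calls changed with the Tag setting, with single tumours and with single score genes. Within the samples of Tag mean below 0.2, 3 genes were called higher (0.0199%) and 8 lower (0.0530%), and with Tag class as a block 3 were called higher (0.0199%) and 4 lower (0.0265%). All 145 lower genes and all 7 higher genes kept their sign within the Tag-below samples, where 71 of the 145 and 5 of the 7 still differed 2-fold or more. For the 93 of the 145 and 4 of the 7 without overlap between the groups, the sign is fixed in any part of these samples. Only 5 of the 145 (CDS1, MUC1, CERS3, EPB41 and LNX1) and 1 of the 7 (CNN2) were still called there, and 2 of the 145 (CERS3 and EPB41) and 0 of the 7 with the block, so every other gene called over the 12 samples lost its call in both. The median log2 fold change of the 145 was -1.28 over 6 against 6 samples and -0.99 within the Tag-below samples. These comparisons share the 6 low-score samples and 3 high-score samples. The Tag-below comparison holds 3 against 6 arrays in place of 6 against 6. The part of the smaller number of arrays in the lost calls was not tested. With the block the fold changes equal those within the Tag-below samples, since no low-score sample is Tag-high. Leaving out 1 tumour gave 1 to 110 higher and 20 to 761 lower calls, with 1 higher and 21 lower without replicate 4, 110 and 761 without replicate 11 and 94 and 699 without replicate 12, and the lower count stayed within 1.5 times only without replicate 16. Dropping KRT20 or PPARG from the score left the same tumours at the ends, while dropping KRT17, CDH3 or UPK3A changed them and gave 0 higher and 1 lower call. Without LAMB3 all 6 tumours at the high end were Tag-high and 0 at the low end were, with 512 higher and 2321 lower calls, and the 7 Tag-high against the 11 other tumours gave 415 and 1966.

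The labelled names basal-like and luminal-like were checked against other genes of each programme. TP63, the transcription factor of basal cells, ran from -0.20 to 0.45 with a median of 0.11 in high-score samples and from -0.22 to 0.17 with a median of -0.15 in low-score samples. Its log2 fold change was 0.19 ± 0.12 (SE, adjusted p = 0.233 by limma), and 0.06 within the Tag-below samples. Of 25 genes in a list of basal keratins and adhesion, 19 were measured, 0 were called, and 14 of the 19 had a log2 fold change above 0 (7954 of 15107 over all genes). The list median was 0.19, and 0.14 within the Tag-below samples. In squamous differentiation 0 of 23 measured genes were called, with a median of 0.20. With KRT5, KRT14 and KRT6A not measured and no other basal gene called, the groups are named here by their score and not as a subtype.

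At an unadjusted p under 0.05, 6 of the 19 basal keratin and adhesion genes were higher and 0 lower. Over all 15107 genes 2602 were higher and 2754 lower at that p. Among lists of other cell types some had larger shares and some smaller ones. Of endothelial genes 10 of 14 were higher and 0 lower, and of T and NK cell genes 8 of 19 were higher and 0 lower. Of smooth muscle genes 4 of 20 were higher, and of macrophage and myeloid genes 0 of 19 were. DSG3, a desmosomal cadherin of stratified epithelium, ran from -0.02 to 2.70 with a median of 0.94 in high-score samples and from -0.28 to -0.04 with a median of -0.18 in low-score samples. The groups did not overlap, yet the spread in the high-score group was wide and the log2 fold change of 1.34 ± 0.43 was not called (SE, adjusted p = 0.096 by limma), with 1.36 within the Tag-below samples. Over all 15107 genes, 124 lay without overlap above the low-score group and 273 below it. CD44, the hyaluronan receptor of basal cells, was 1.56 or above in 3 high-score samples and between -0.26 and -0.16 in the other 3, against -0.28 to 0.32 in low-score samples. Its log2 fold change was 1.10 ± 0.52 (SE, adjusted p = 0.149 by limma). The high CD44 values lay on both sides of the Tag threshold. EGFR, a receptor tied to basal tumours in human bladder cancer, ran from -0.98 to 0.30 in high-score samples and from -0.50 to 1.05 in low-score samples, with a log2 fold change of -0.31 ± 0.28 (SE, adjusted p = 0.397 by limma).

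**Figure D2:**
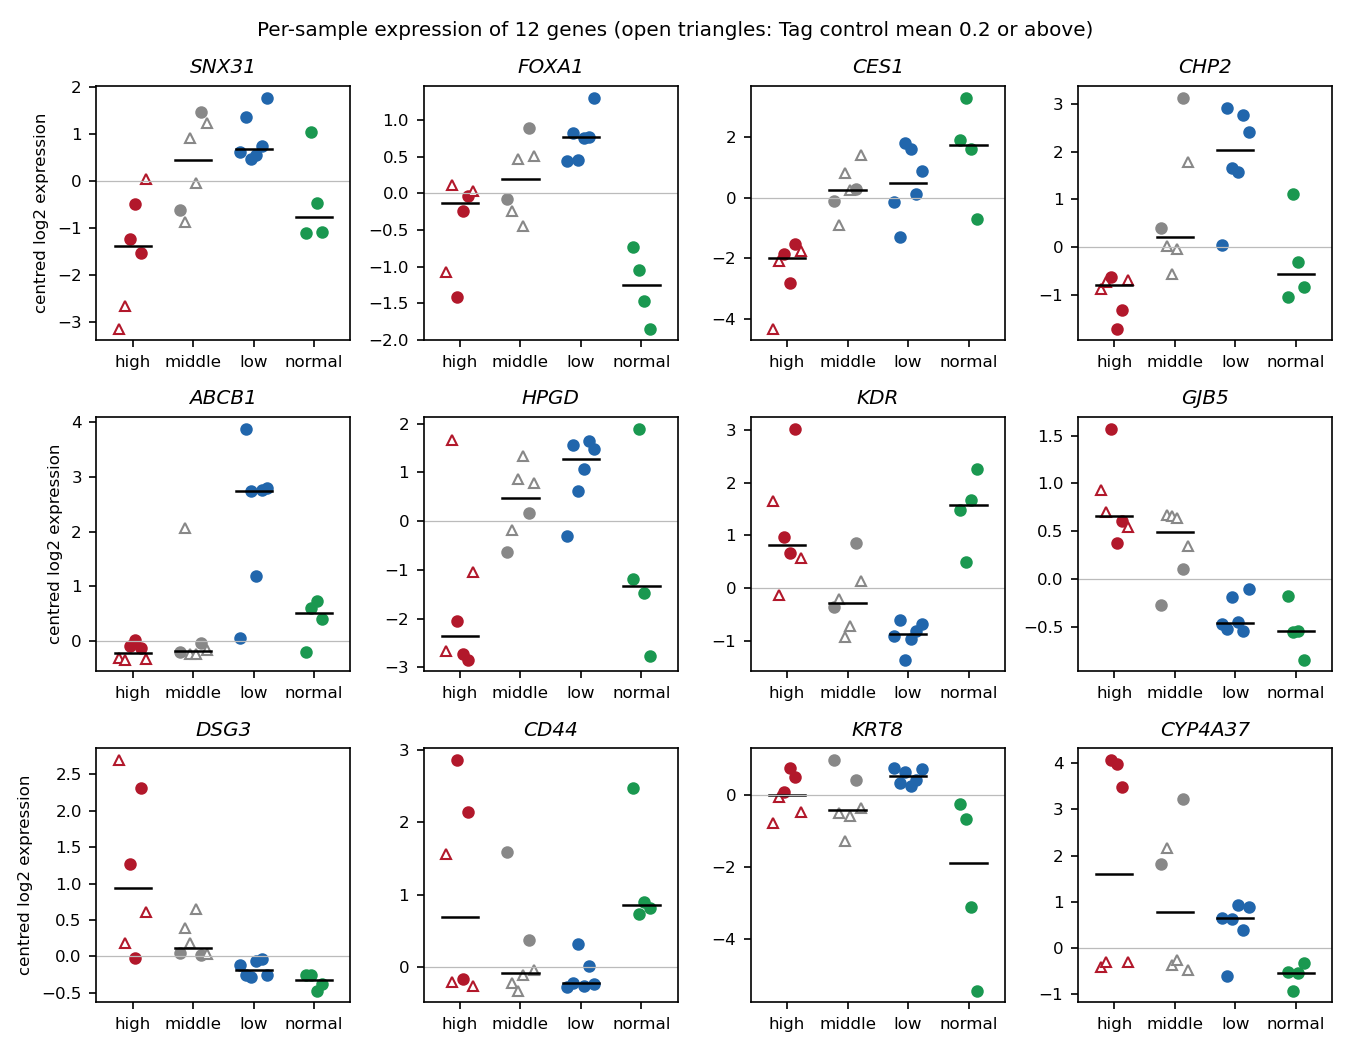
Centred log2 expression of 12 genes in each sample, with high-score iUC (red), middle iUC (grey), low-score iUC (blue) and normal bladder (green) from left to right; a bar marks the group median and open triangles mark iUC samples with a Tag mean of 0.2 or above. SNX31, FOXA1, CES1, CHP2 and ABCB1 do not overlap between high-score and low-score samples, and CYP4A37 splits the high-score samples by Tag level.

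Among umbrella cell genes SNX31 and RAB27B were lower in high-score tumours. Of 25 genes in the list of uroplakins and umbrella cell genes 23 were measured, and 2 were called lower and 0 higher (145 and 7 of 15107 over all genes). Of the 23, 18 had a log2 fold change below 0 (7153 of 15107 over all genes), with a median of -0.80 that was -0.33 within the Tag-below samples. SNX31, a sorting nexin of umbrella cells that binds uroplakins, ran from -3.15 to 0.04 with a median of -1.38 in high-score samples and from 0.47 to 1.78 with a median of 0.68 in low-score samples. Every high-score sample lay below every low-score sample, and the log2 fold change was -2.42 ± 0.50 (SE, adjusted p = 0.039 by limma). Within the Tag-below samples it was -2.0 ± 0.34 and no longer called (SE, adjusted p = 0.076 by limma). RAB27B, a small GTPase of vesicle transport to the apical membrane, ran from -1.44 to 0.11 in high-score samples and from 0.28 to 1.53 in low-score samples, again without overlap, with a log2 fold change of -1.47 ± 0.29 (SE, adjusted p = 0.035 by limma) and -1.40 ± 0.31 within the Tag-below samples (adjusted p = 0.190).

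The uroplakins outside the score varied more within the high-score group. UPK1A had a median of -0.23 in high-score samples and 0.34 in low-score samples, and replicate 4 alone reached -5.40. Without that extreme the high-score values lay between -0.49 and 0.01, and the log2 fold change of -1.37 ± 0.80 was not called (SE, adjusted p = 0.215 by limma). UPK1B ran from -3.30 to 0.40 in high-score samples and from -1.57 to 1.00 in low-score samples, and UPK3B from -1.05 to 0.87 in high-score samples and from 0.00 to 1.30 in low-score samples. Neither was called (adjusted p = 0.161 for UPK1B and 0.129 for UPK3B by limma). Within the Tag-below samples the log2 fold changes were -0.43 for UPK1A, -1.47 for UPK1B and -0.15 for UPK3B, against -1.37, -1.26 and -0.80 over all 12 samples.

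Among luminal transcription factors FOXA1 was called. FOXA1, a pioneer factor of luminal urothelium, ran from -1.41 to 0.11 with a median of -0.14 in high-score samples and from 0.44 to 1.31 with a median of 0.77 in low-score samples. No high-score sample reached the lowest low-score sample. The log2 fold change was -1.19 ± 0.27 (SE, adjusted p = 0.047 by limma) and -1.32 ± 0.31 within the Tag-below samples (adjusted p = 0.209). In normal bladder FOXA1 ran from -1.85 to -0.73, below all low-score tumours. The mean of the smooth muscle genes was 2.27 to 3.87 in normal bladder, -0.23 to 0.38 in high-score and -0.50 to 0.55 in low-score samples. The part of muscle in the normal bladder values given here and below was not tested. The other 16 of 17 measured factors were not called, and the list median was -0.22. ELF3, an epithelial ETS factor, had medians of 0.00 in high-score samples and 0.21 in low-score samples (log2 fold change -0.34, adjusted p = 0.410 by limma). TBX2, a T-box factor, was below the lowest low-score value in 5 of 6 high-score samples (log2 fold change -0.67, adjusted p = 0.115 by limma, and -0.33 within the Tag-below samples).

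In the list of simple keratins and junction genes the median moved with the Tag level. Of 23 measured genes 3 were called lower and 0 higher (145 and 7 of 15107 over all genes). The median was -0.60, against -0.16 within the Tag-below samples. CDS1, which makes CDP-diacylglycerol for phospholipid synthesis, ran from -1.24 to -0.09 in high-score samples and from 0.69 to 1.29 in low-score samples. Its log2 fold change was -1.44 ± 0.19 (SE, adjusted p = 0.012 by limma), and it was -1.32 ± 0.18 within the Tag-below samples, where it was also called. ESRP1, an epithelial splicing regulator, was -1.57, -0.50 and -0.34 in the 3 high-score samples of high Tag level and -0.22, 0.22 and 0.24 in the other 3, against 0.28 to 1.35 in low-score samples. Its log2 fold change was -1.30 ± 0.29 (SE, adjusted p = 0.046 by limma), and -0.86 ± 0.24 within the Tag-below samples. The third called gene was OCLN, named outside the rule for list members. The groups did not overlap for OCLN, and its log2 fold change was -1.16 ± 0.18 (SE, adjusted p = 0.018 by limma). Within the Tag-below samples it was -1.26 and not called (adjusted p = 0.059 by limma).

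The simple keratins KRT7, KRT8 and KRT18 were not called. KRT8 was -0.79, -0.48 and -0.07 in the high-score samples of high Tag level, 0.07, 0.50 and 0.75 in the other 3, and 0.25 to 0.75 in low-score samples. Of the 3 high-score samples below the Tag threshold, 1 lay below the low-score range, 1 within it and 1 at its upper end. Within the Tag-below samples the log2 fold changes were -0.10 for KRT7, -0.08 for KRT8 and 0.00 for KRT18, against -0.47, -0.52 and -0.43 over all 12 samples. CDH1, which encodes E-cadherin, ran from -0.62 to 0.93 in high-score samples and from 0.32 to 1.57 in low-score samples (log2 fold change -1.0 ± 0.29, SE, adjusted p = 0.078 by limma). CLDN3, a tight junction claudin, had a log2 fold change of -0.11 and one of 0.86 within the Tag-below samples, neither called.

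Of the ERBB receptors ERBB3 was called lower. ERBB3, a receptor of neuregulins, ran from -0.98 to 0.78 with a median of -0.36 in high-score samples and from 0.51 to 1.10 with a median of 0.91 in low-score samples. In 5 of 6 high-score samples it lay below every low-score sample, with a log2 fold change of -1.10 ± 0.25 (SE, adjusted p = 0.047 by limma), and -0.74 ± 0.26 within the Tag-below samples (adjusted p = 0.396). ERBB2 ran from -0.73 to 0.36 in high-score samples and from -0.06 to 1.06 in low-score samples, and its log2 fold change of -0.82 ± 0.23 was not called (SE, adjusted p = 0.077 by limma). Of 15 measured ERBB receptors and ligands 1 was called lower and 0 higher (145 and 7 of 15107 over all genes). A log2 fold change above 0 was seen in 11 (7954 of 15107 over all genes), and the median was 0.18, with 0.05 within the Tag-below samples. FGFR3, mutated or raised in many human luminal tumours, was 0.03, 0.96 and 1.43 in the Tag-below high-score samples and -0.72, -0.53 and -0.03 in the others, against -0.06 to 0.88 in low-score samples (log2 fold change -0.21, adjusted p = 0.644 by limma).

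Of all 15107 genes, 273 lay below the low-score group without overlap. Of the 10 largest non-overlapping falls among called genes, SNX31 was a member of a marker list and the others were not. CES1, a carboxylesterase of lipid and drug metabolism, ran from -4.33 to -1.53 with a median of -1.97 in high-score samples and from -1.30 to 1.80 with a median of 0.50 in low-score samples. The log2 fold change was -2.89 ± 0.59 (SE, adjusted p = 0.037 by limma) and -2.55 ± 0.66 within the Tag-below samples. CHP2, a calcium-binding partner of sodium-proton exchangers, ran from -1.70 to -0.63 in high-score samples and from 0.05 to 2.91 in low-score samples. Its log2 fold change was -2.88 ± 0.43 (SE, adjusted p = 0.018 by limma), and -3.11 ± 0.59 within the Tag-below samples. Neither was called within the Tag-below samples (adjusted p = 0.258 for CES1 and 0.126 for CHP2 by limma).

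ABCB1, the P-glycoprotein drug efflux pump, was near its series median in every high-score sample, from -0.34 to 0.03. In low-score samples it ran from 0.05 to 3.88 with a median of 2.75, so the difference came from high values in the low-score group. The log2 fold change was -2.43 ± 0.52 (SE, adjusted p = 0.042 by limma), and -2.29 within the Tag-below samples. In 5 of 6 middle tumours ABCB1 was also at or below 0, and 1 reached 2.06. TMEM64, a membrane protein, ran from -3.08 to 0.34 in high-score samples and from 0.62 to 1.83 in low-score samples (log2 fold change -2.96 ± 0.50, SE, adjusted p = 0.022 by limma, and -2.47 within the Tag-below samples). SPTLC3, a subunit of the enzyme that starts sphingolipid synthesis, ran from -2.67 to 0.06 in high-score samples and from 0.59 to 1.23 in low-score samples (log2 fold change -2.16 ± 0.41, SE, adjusted p = 0.032 by limma, and -2.13 within the Tag-below samples).

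The remaining genes among the 10 largest non-overlapping falls were ERN2, TRIT1, AS3MT and GPHN, with log2 fold changes of -2.12, -2.03, -1.97 and -1.87. ERN2 encodes a sensor of unfolded protein in mucus-making epithelia, TRIT1 modifies transfer RNA, AS3MT methylates arsenic and GPHN anchors receptors at synapses and makes molybdenum cofactor. GPHN was -1.97, -1.59 and -1.34 in the 3 high-score samples of high Tag level and -0.58, 0.01 and 0.27 in the other 3, against 0.55 to 1.85 in low-score samples, and its log2 fold change shrank to -1.10 within the Tag-below samples. SLC2A1, a glucose transporter, ACAA2, an enzyme of fatty acid oxidation, and CXADR, a junction protein and virus receptor, had log2 fold changes of -1.40, -1.10 and -1.41 over all 12 samples and -0.89, -0.63 and -0.87 within the Tag-below samples. FBP1, an enzyme of gluconeogenesis, stayed close, at -1.55 and -1.43.

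**Figure D3:**
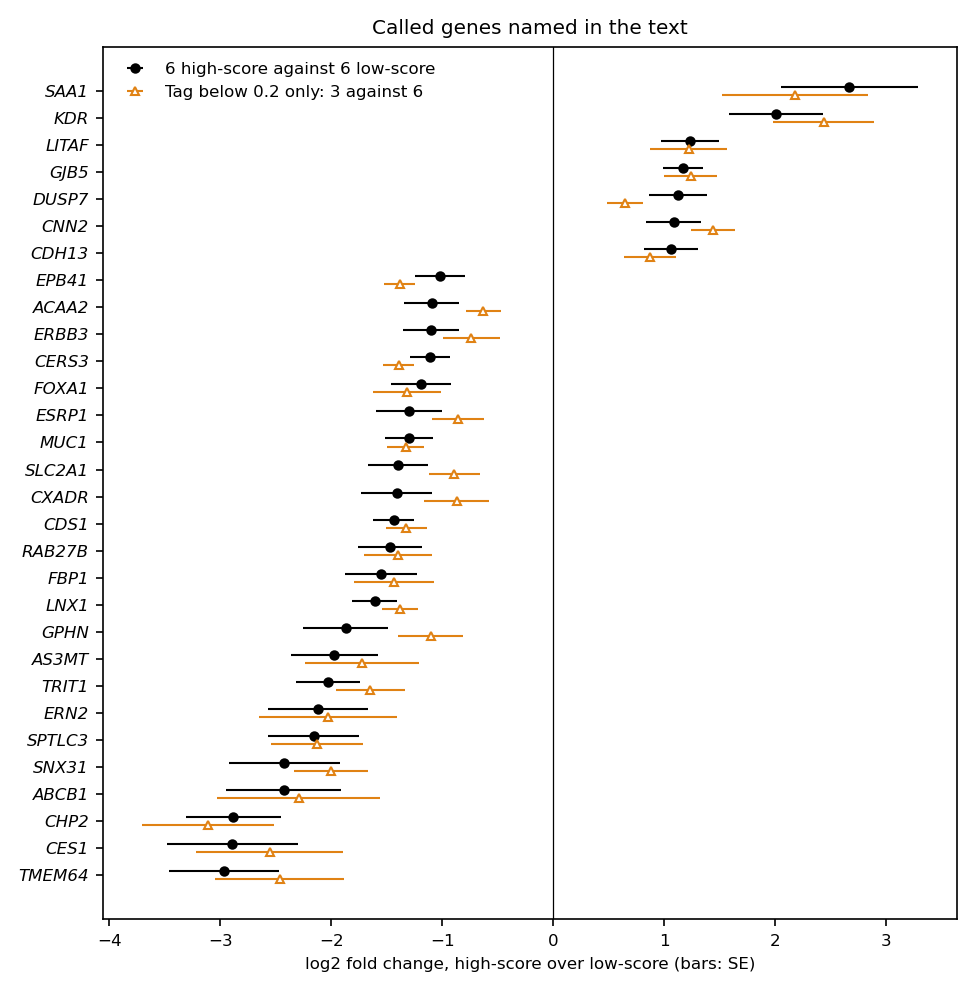
Log2 fold change, high-score over low-score, with its standard error for the called genes named in the text except OCLN, from all 12 samples (black) and from the 3 high-score and 6 low-score samples of Tag mean below 0.2 (orange triangles). Every gene shown keeps its sign, and DUSP7, GPHN and ACAA2 are among those that shrink without the Tag-high samples.

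The 7 genes called higher were SAA1, KDR, LITAF, GJB5, DUSP7, CNN2 and CDH13, of which SAA1, LITAF and CDH13 were named after their values were seen. KDR, the main VEGF receptor of endothelium, ran from -0.14 to 3.02 with a median of 0.81 in high-score samples and from -1.35 to -0.60 with a median of -0.86 in low-score samples. The groups did not overlap, and the log2 fold change was 2.01 ± 0.42 (SE, adjusted p = 0.040 by limma) and 2.43 ± 0.46 within the Tag-below samples (adjusted p = 0.122). In normal bladder KDR ran from 0.50 to 2.25. GJB5, a connexin of stratified epithelium, ran from 0.38 to 1.58 in high-score samples and from -0.55 to -0.10 in low-score samples, with a log2 fold change of 1.17 ± 0.18 (SE, adjusted p = 0.018 by limma), and 1.24 within the Tag-below samples. Normal bladder had -0.85 to -0.18 for GJB5, and 5 of 6 middle tumours were above 0.

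CNN2, an actin-binding calponin, ran from -0.20 to 1.51 in high-score samples and from -0.80 to -0.36 in low-score samples (log2 fold change 1.08 ± 0.25, SE, adjusted p = 0.047 by limma, and 1.44 within the Tag-below samples, where it was also called). The 3 probe sets of CNN2 ranged from 0.26 to 1.52 in log2 fold change over all 12 samples. DUSP7, a phosphatase of MAP kinases, ran from 0.00 to 1.97 in high-score samples and from -0.46 to -0.04 in low-score samples. Its highest values, 0.89 to 1.97, were those of the 3 samples of high Tag level, and the log2 fold change was 1.12 over all 12 samples and 0.64 within the Tag-below samples. SAA1, an acute phase protein, had the largest rise, with -0.21 to 2.68 in high-score samples against -2.95 to -0.18 in low-score samples (log2 fold change 2.67 ± 0.62, SE, adjusted p = 0.049 by limma, and 2.18 within the Tag-below samples).

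Markers of other cell types in the samples were counted beside these genes. Of 14 measured endothelial genes 1, KDR, was called higher. All 14 had a log2 fold change above 0 (7954 of 15107 over all genes), with a list median of 0.64, and 0.63 within the Tag-below samples. The mean of the endothelial genes in a sample ran from 0.10 to 1.19 in high-score samples and from -0.48 to -0.20 in low-score samples. In fibroblasts and matrix 0 of 22 genes were called, with a median of 0.51, and 0.39 within the Tag-below samples, and the mean of the list ran from -0.21 to 0.85 in high-score samples and from -0.54 to 0.27 in low-score samples. In smooth muscle 0 of 20 genes were called, with a median of 0.28, and 0.12 within the Tag-below samples. T and NK cell genes had a median of 0.31 and B and plasma cell genes one of 0.33, with 0 of 19 and 0 of 10 called, and 0.11 and 0.18 within the Tag-below samples. All 19 and all 10 of these genes also had a log2 fold change above 0. In bulk tissue more cells of a type and more RNA per cell cannot be told apart, and centred values show no marker at zero. The part of endothelial or stromal cells in the other differences was not tested.

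VIM, ZEB1 and ZEB2, genes of mesenchymal cells, were not called (log2 fold changes 0.60, 0.52 and 0.26). ZEB1 was nevertheless above the highest low-score value in 5 of 6 high-score samples, with -0.21 to 0.79 in high-score samples and -0.31 to -0.16 in low-score samples. In normal bladder ZEB1 ran from 1.14 to 3.87, above every tumour of either group. S100A9, a neutrophil and squamous alarmin, varied widely, from -2.04 to 2.83 in high-score samples and from -2.30 to 2.26 in low-score samples. STAT3 and MMP9 were not called (log2 fold changes -0.49 and -0.10). STAT3 followed the Tag level, with -0.96 to -0.74 in the 3 Tag-high samples and 0.14 to 0.47 in the other 3 high-score samples, against -0.25 to 0.58 in low-score samples.

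Across the other lists few genes were called. Cell cycle and mitosis genes had a median of -0.54 with 0 of 26 called, and -0.25 within the Tag-below samples. MHC genes had a median of -0.48 with 0 of 15 called, and the sign turned to 0.28 within the Tag-below samples. The interferon response median was -0.41, and -0.56 within the Tag-below samples, with 0 of 20 called. In the luminal list that the study drew up and used on these same samples, 3 of 26 measured genes were called lower (CXADR, ERBB3 and FBP1), against 145 of 15107 over all genes. A log2 fold change below 0 was seen in 24 of 26 (7153 of 15107 over all genes), with a median of -0.65 that was -0.23 within the Tag-below samples. In the basal list of the study 0 of 33 genes were called, with a median of 0.26. The study took both lists from published human work and kept genes that differed between normal bladder and these tumours. Neither list is thus independent of these data.

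**Figure D4:**
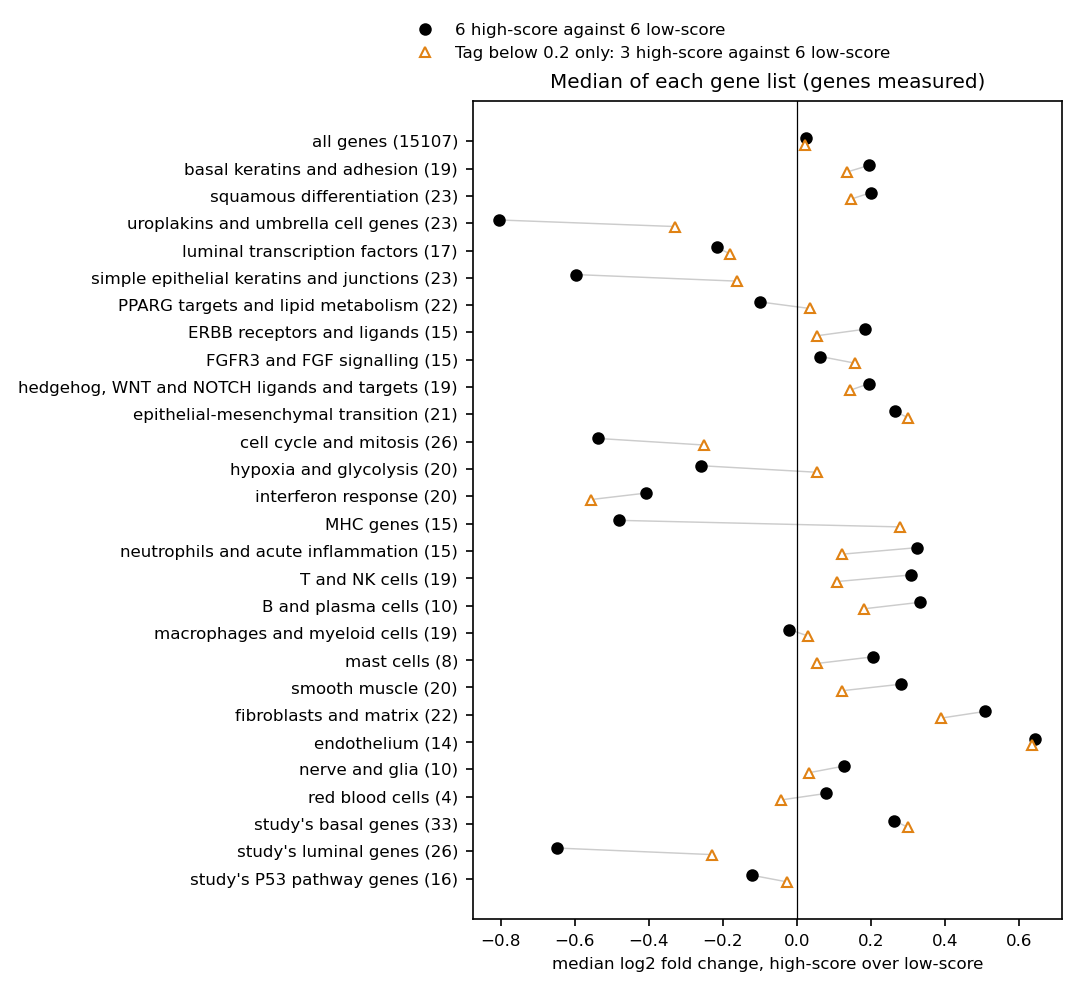
Median log2 fold change, high-score over low-score, of each gene list and of all genes, from all 12 samples (black) and from the samples of Tag mean below 0.2 (orange triangles), with the number of genes measured in parentheses. Uroplakin, simple keratin and luminal lists lie left of 0 and move towards it without the Tag-high samples, and the endothelial list stays at 0.64 and 0.63.

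Within the samples of Tag mean below 0.2, the genes called were looked up after their values were seen. HPGD, which breaks down prostaglandins, was -2.85, -2.72 and -2.04 in the 3 Tag-below high-score samples, against -0.30 to 1.65 in the 6 low-score samples. Its log2 fold change there was -3.55 ± 0.43 (SE, adjusted p = 0.035 by limma). Of the 3 Tag-high samples, 1 had an HPGD value of 1.66, and over all 12 samples the gene was not called (log2 fold change -2.62, adjusted p = 0.071 by limma). MUC1, a mucin of the apical surface, was -0.37 to -0.24 in the 3 Tag-below high-score samples and 0.75 to 1.5 in low-score samples, with a log2 fold change of -1.33 ± 0.17 (SE, adjusted p = 0.035 by limma). CERS3, a ceramide synthase, EPB41, a membrane skeleton protein, and LNX1, a ubiquitin ligase, had log2 fold changes of -1.39, -1.38 and -1.38 there. The 2 probe sets of CERS3 differed, with log2 fold changes of -1.89 and -0.32 over all 12 samples.

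CYP4A37, a cytochrome P450 of a fatty acid hydroxylase family, was 3.48, 3.99 and 4.08 in the 3 Tag-below high-score samples and -0.41, -0.31 and -0.30 in the 3 Tag-high ones, against -0.61 to 0.92 in low-score samples. The high-score group was thus split by the Tag level, and the log2 fold change was 3.38 ± 0.32 within the Tag-below samples (SE, adjusted p = 0.018 by limma) and 1.28 ± 0.89 over all 12 (adjusted p = 0.280). SLC4A11, a borate and water transporter family member, showed the same split, with 1.27 to 1.88 in the 3 Tag-below samples and -0.05 to 0.25 in the 3 Tag-high ones, against -0.26 to 0.54 in low-score samples.

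The score was also used as a number over all 18 iUC samples with Tag class as a block, which keeps the 6 middle tumours. There 48 genes rose with the score (0.318%) and 57 fell (0.377%), at an adjusted p of 0.05 or below by limma. SNX31 changed by -2.01 log2 units per unit of score (adjusted p = 0.014), CES1 by -2.50 (adjusted p = 0.013), KDR by 1.53 (adjusted p = 0.044), DSG3 by 1.19 (adjusted p = 0.032), FOXA1 by -0.95 (adjusted p = 0.032) and FBP1 by -1.10 (adjusted p = 0.015). Of the 145 genes called lower between the ends of the order, 23 passed in this fit. Without replicate 4, which has the highest score, 0 genes passed in either direction (1875 at an unadjusted p under 0.05). The slopes were then -2.21 for SNX31, -2.58 for CES1, 1.87 for KDR, 0.97 for DSG3, -1.17 for FOXA1 and -1.23 for FBP1. No other sample was left out of this fit.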

How the data were processed

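RNA of 18 canine iUC and 4 normal bladder samples was hybridized to Affymetrix canine arrays, 1 for each sample, from 5 µg total RNA per the labels. The deposited log2 values had been processed by the authors in GeneSpring GX and centred on the median of each probe set over the 22 arrays, and how probes were summarised or arrays normalized was not stated in the methods or labels. Of 43035 probe sets, 111 were controls and 29254 had 1 gene symbol, and the mean of its probe sets gave each of 15115 genes. A filter on low expression was not possible, since centred values keep no level.

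The score, the 6 samples at each end and the Tag mean were computed as the rule states. The 8 measured score genes stayed in the fit and in the adjustment of p-values, and were left out of counts, lists and named genes. Both groups were fitted in R 4.3.3 with lmFit and eBayes of limma 3.58.1, with Benjamini-Hochberg adjustment over all genes, and a gene was called where its fold change reached 2 at an adjusted p no higher than 0.05. Gene lists were described by counts and medians. Named genes were the 10 largest non-overlapping rises and falls among called genes (4 rises qualified), up to 2 called members of each list each way, and a fixed set of basal, luminal and receptor genes, unless stated otherwise. Members and lists were chosen with earlier results of these data known. The script was tested on simulated data. No 2 iUC arrays held the same values (highest correlation 0.854). P-values set the difference between the groups against the spread between dogs within them, for groups picked by a score from the same arrays. The number of arrays limits the precision. Normalization, probe choice, Tag class, the score genes, the number of samples at each end and each replicate were varied.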

Additional observations from a re-analysis of the deposited data

Results flagged for a closer look

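Values that stood far from the other 5 samples of a group of 6 were looked for in the genes named and in the score, and 8 of 120 groups of values held one, where chance marks about 1 in 20. In the high-score group replicate 4 stood apart from the others in the score (1.83), in the mean of the luminal score genes (-1.17) and in UPK1A (-5.40). The score and the means of its genes formed the groups, so the chance rate does not apply to them. Their flags are counted among the 8 and are given as a description. In the low-score group replicate 17 stood apart at 1.25 for ELF3 and at -0.61 for CYP4A37, and replicate 9 at 1.46 for TBX2 and at -0.46 for DUSP7. Replicate 14 stood apart at -0.80 for CNN2.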

How the results depend on the processing

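As compared, 7 genes were called higher and 145 lower. The counts were 6 and 143 with scaling to the 75th percentile, 8 and 122 with centring of each array, 6 and 201 with the most variable probe set of a gene, 5 and 199 over single probe sets, and 8 and 112 with all 18 tumours in 3 groups. They were 85 and 244 after quantile normalization, 361 and 1763 with array weights, 15 and 259 among genes of larger spread, and 1 and 19 by the methods' t-test after Benjamini-Hochberg adjustment (59 and 464 before it). With the Tag mean as a covariate they were 1 and 3, with Tag class as a block 3 and 4, within the Tag-below samples 3 and 8, and with 4 against 4 of these 0 and 2. No value could be had within the samples of Tag mean 0.2 or above, since no low-score sample lies there. With 9 against 9 tumours they were 0 and 0 (2871 at an unadjusted p under 0.05) and with 4 against 4 they were 0 and 1. The basal score genes alone gave 0 and 0 (474 at an unadjusted p under 0.05) and the luminal ones alone 7 and 315. The score without KRT17, CDH3 or UPK3A gave 0 and 1 each, without LAMB3 512 and 2321, without GATA3 174 and 1085 and without UPK2 5 and 125, while leaving out KRT20 or PPARG, or scoring after quantile normalization, gave 7 and 145. Leaving out 1 tumour gave 1 to 110 higher and 20 to 761 lower.

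With the score as a number over 18 tumours, 552 genes rose and 845 fell. The following were chosen after the data were seen. With Tag class as a block 48 rose and 57 fell, within the Tag-below samples 0 and 4, within the others 11 and 0, without replicate 4 6 and 15, and without it and with the block 0 and 0 (1875 at an unadjusted p under 0.05). Within the Tag-high samples 2 called genes turned direction, ERN2 at 0.21 and EPB41 at 0.18 log2 units per unit of score. Over 30 called genes named in the text (all but OCLN) and 44 alternatives, 616 of 1320 values kept direction and call, 702 kept direction only and 2 reversed. The cause was not tested. No paired analysis was possible because the 2 groups are different tumours that share no replicate number.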
